A study of Homo sapiens with 6 samples.

Results

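Imprinted and oncofetal growth genes were followed across 6 RNA sequencing libraries of hepatoblast-like cells. The set held 10 genes, taken by symbol from the 60623 genes of the files: H19, IGF2, DLK1, MEG3, PEG3, PEG10, GPC3, IGF2BP1, IGF2BP3 and LIN28B. All 10 symbols were found. Of the libraries, 3 came from cells exposed to HFPO-TA, a fluorinated ether acid of the PFAS class whose full name is hexafluoropropylene oxide trimer acid, and 3 from cells in 0.1% DMSO as vehicle. The cells of both groups were differentiated from H9, an established human embryonic stem cell line, and are labelled as hepatoblasts at day 19. The labels give the HFPO-TA dose as 10 in a garbled unit, and they state the DMSO share for the vehicle group alone. H9 is a single line, and nothing in the labels ties a replicate to its own culture. The p-values therefore reflect only how much the libraries of a group vary, and that variation may be technical.

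An imprinted gene is transcribed mainly from the copy inherited from one parent. IGF2, a fetal growth factor, DLK1, PEG3 and PEG10 are transcribed mainly from the paternal copy, and the noncoding RNAs H19 and MEG3 mainly from the maternal copy. Oncofetal genes such as GPC3, IGF2BP1, IGF2BP3 and LIN28B are active in fetal tissues, are mostly shut down in the adult and return in some cancers, liver cancer among them. LIN28B blocks the maturation of let-7 microRNAs, which in turn bind the messages of LIN28B, IGF2BP1 and IGF2BP3 and lower them.

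The let-7 sequences are shown because the 3 RNA-binding protein genes of the set share matches to them. The 8 mature let-7 names in RefSeq (GRCh38.p14) carry 1 seed, bases 2 to 8, given in capitals, and miR-98 carries the same seed.
hsa-let-7a-5p: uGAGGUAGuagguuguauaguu
hsa-let-7b-5p: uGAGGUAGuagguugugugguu
hsa-let-7g-5p: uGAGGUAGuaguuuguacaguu
hsa-miR-98-5p: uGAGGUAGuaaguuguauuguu

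LIN28 proteins bind GGAG in the loop of let-7 precursors. Of 11 let-7 hairpins in RefSeq, 9 held GGAG downstream of the 5' mature arm and, where a second arm is annotated, upstream of it. The hairpin of let-7g is shown with that motif in capitals.
MIRLET7G: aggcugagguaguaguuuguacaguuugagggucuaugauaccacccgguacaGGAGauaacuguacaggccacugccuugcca

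The message strand of the longest annotated 3' UTR of each coding gene in GENCODE 29 (GRCh38) was searched for CTACCTC, which pairs with the let-7 seed, and for CTACCTCA, which adds an A and contains the shorter match. Only the message strand was searched, since a microRNA pairs with the message. IGF2BP1 held 4 matches of 7 letters, 3 of them of 8 letters, and LIN28B held 4 and 2. IGF2BP3 held 1 match, of 8 letters. The 8-letter matches are shown in capitals.
IGF2BP1 at chr17:49051065-49051094, plus strand: tgcgaagtaaaCTACCTCAaggtatgaagt
IGF2BP1 at chr17:49053702-49053731, plus strand: agtgctagtaaCTACCTCAcagagccccag
IGF2BP1 at chr17:49054356-49054385, plus strand: aaatggattaaCTACCTCAatccttacagt
IGF2BP3 at chr7:23311784-23311813, minus strand: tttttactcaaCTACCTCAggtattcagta
LIN28B at chr6:105078816-105078845, plus strand: ggttgcaaagtCTACCTCAtgcaagtatag
LIN28B at chr6:105081425-105081454, plus strand: acagcaaaaggCTACCTCAtagttgataca

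IGF2, DLK1, PEG3, PEG10 and GPC3 held no match in these UTRs. Over 13171 genes 10.9% held the 7-letter match and 4.2% the 8-letter match. Long UTRs hold it more often: among genes with UTRs of a length like that of IGF2BP1, 29.9% held the shorter match, against 24.2% for the length of LIN28B and 12.8% for that of IGF2BP3. A match describes the letters only.

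Values were treated as TPM (transcripts scaled to a fixed total in each library), a level per transcript length relative to all other transcripts in the library. Each library summed to between 995690 and 996186 and had 15383 to 15905 genes at 1 TPM or more. TPM keeps no depth, so depth is unknown. AFP, which encodes the main plasma protein of the fetal liver, had the highest level in each library. It ran from 63150.38 to 66804.17 TPM with HFPO-TA and from 71682.03 to 79063.05 TPM with DMSO. ALB, the adult serum albumin, was at 54.07 to 73.51 TPM with HFPO-TA and 100.92 to 128.68 TPM with DMSO. Neither gene passed the test given below (limma adjusted p = 0.0867 for AFP and 0.0522 for ALB). Such lower groups without overlap were found in 9.4% of all tested genes. Of the hepatoblast markers listed for the label, 18 of 19 passed the filter of 1 TPM in 3 or more libraries. So did 9 of 10 biliary and 12 of 13 gut endoderm markers, against 1 of 12 blood markers. Passing therefore does not single out hepatoblasts. CYP3A4, a drug-metabolising enzyme of adult hepatocytes, did not pass. It read 1.23, 1.42 and 0.28 TPM with HFPO-TA, against 0.64, 0.18 and 0.55 TPM with DMSO. CYP3A4 does not stand for all liver enzymes, since CPS1 averaged 89.58 TPM and G6PC 23.93 TPM over the 6 libraries. Of 17 genes found from the fetal to adult liver list, 9 passed. Stromal and stellate markers were present as well, 16 of 19 passing, with a summed level of 4705 to 6956 TPM with HFPO-TA and 5685 to 7326 TPM with DMSO. FN1 made up most of that sum, at 3250.18 to 4252.37 TPM with HFPO-TA and 3932.91 to 4915.37 TPM with DMSO. The sum therefore does not measure stromal content. A lower share of one cell type and less RNA per cell cannot be told apart in such bulk libraries.

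By row, the order of mean levels was GPC3, IGF2, DLK1, PEG10, IGF2BP3, IGF2BP1, LIN28B, H19, MEG3 and PEG3. The IGF2 row shares sequence with other rows, INS-IGF2 among them, as described below. These 2 rows summed averaged 2170 TPM with HFPO-TA and 2129 TPM with DMSO. GPC3 averaged less, 1687 and 1681 TPM, so its first place depends on how the IGF2 locus is split into rows. Over the 6 libraries, IGF2BP3 and IGF2BP1 overlapped in level, and so did the neighbours DLK1 and PEG10, since the lowest DLK1 value was 166.41 TPM and the highest PEG10 value 167.77 TPM. No other neighbouring genes in this order overlapped except MEG3 and PEG3, which were both listed at 0 in DMSO replicate 2.

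**Figure D1:**
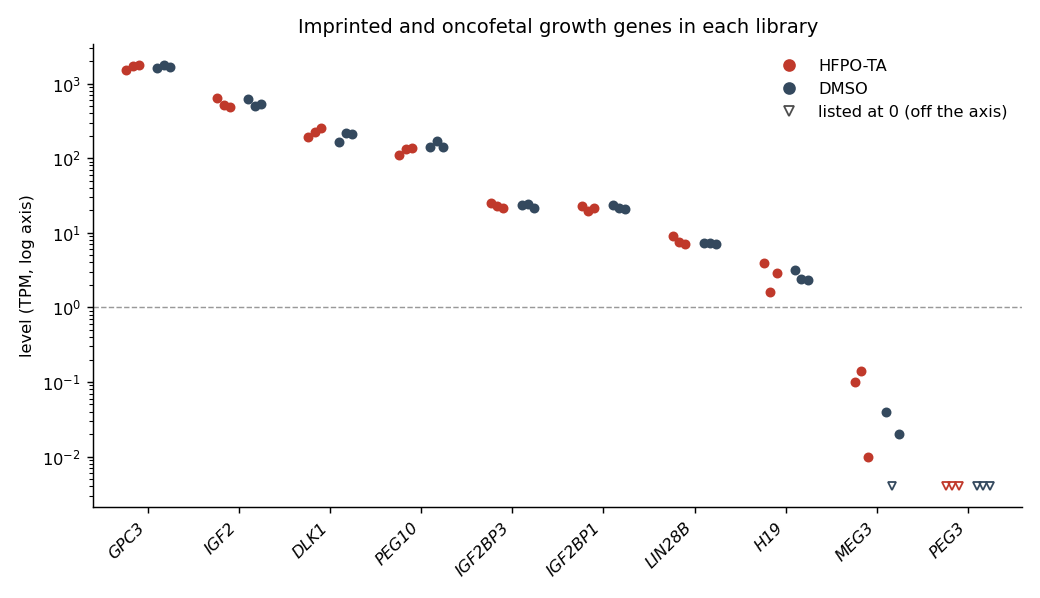
Level of each of the 10 genes in TPM on a log axis, ordered by mean, with 1 point per library, HFPO-TA in red and DMSO in grey. Open triangles mark values listed at 0, the dashed line marks 1 TPM, and only PEG10 among the genes above that line has groups that do not overlap.

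With HFPO-TA, none of the 8 members above the filter passed the test for a change. limma on log2(TPM + 1), with Benjamini-Hochberg adjustment over 15664 genes and a threshold of 0.05, called 77 genes, or 0.492%, and 0 of the 8 members. By direction, 0.185% of all tested genes were called higher and 0.306% lower. A single member, PEG10, was under an unadjusted p of 0.05, a level reached by 12% of all tested genes. MEG3 and PEG3 did not pass the filter and were not tested. On the log2(TPM + 1) scale, the 8 log2 fold changes of HFPO-TA over DMSO were above 0 for 4 members and below 0 for 4. Their median was 0.001, beside -0.008 for all tested genes. The largest in size was 0.245, and the median size over all tested genes was 0.124.

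**Figure D2:**
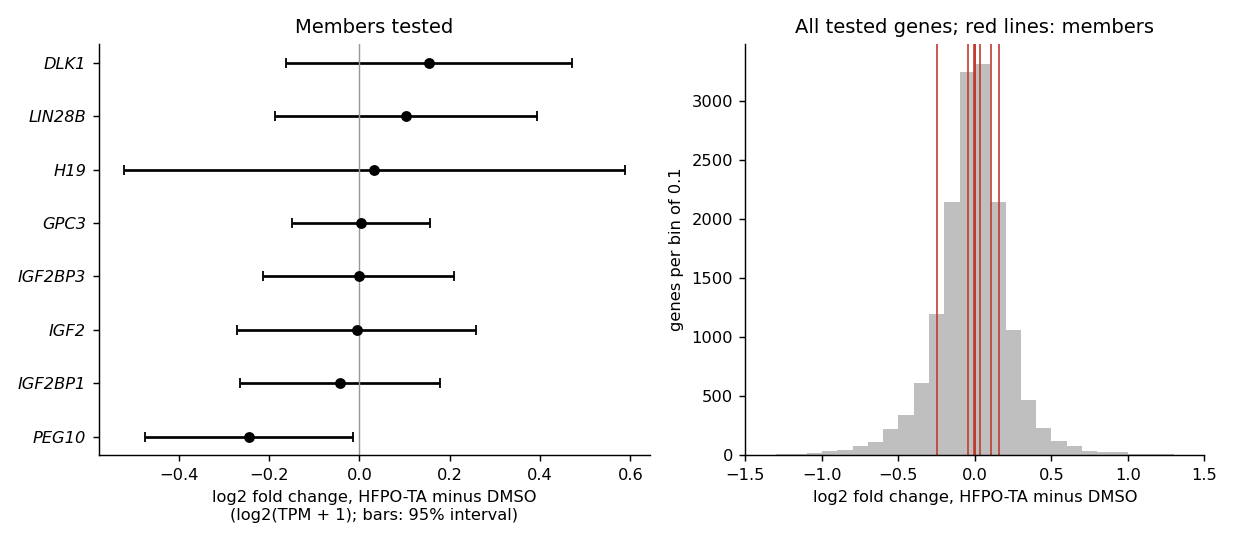
Left, log2 fold change (HFPO-TA minus DMSO, log2(TPM + 1)) of the 8 tested members with 95% intervals. Right, the same quantity for all 15664 tested genes in bins of 0.1, with members as red lines: 7 of the 8 intervals span 0, and PEG10 lies lowest at -0.25.

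IGF2 signals through the IGF1 and insulin receptors and drives fetal growth. Its gene lies on chromosome 11 (chr11:2129112-2149603, minus strand, GRCh38), and its row read 631.13, 517.98 and 485.87 TPM with HFPO-TA, against 612.8, 493.11 and 532.23 TPM with DMSO. The groups overlapped, and replicate 1 was the highest library in each. It had a log2 fold change of -0.01 (SE 0.11, 95% interval -0.27 to 0.26, limma adjusted p = 0.99). Its mean level was above that of 98.6% of genes that average at least 1 TPM.

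The IGF2 row is uncertain because other annotated entries share its sequence. Of the distinct 50-base stretches in IGF2 transcripts, 72.09% also occur in transcripts of other entries. A second entry named IGF2 gives that whole share. The row of that entry was low, at 2.43, 0.62 and 2.04 TPM with HFPO-TA, against 3.96, 3.49 and 3.03 TPM with DMSO. Each HFPO-TA library was below each DMSO library there, as in 9.4% of all tested genes. INS-IGF2, a readthrough of INS into IGF2, holds 19.98% of the stretches. AC132217.1, a noncoding entry that overlaps IGF2 on its own strand, ran from 752.59 to 911.33 TPM with HFPO-TA and 747.65 to 881 TPM with DMSO. INS-IGF2 read 1837.44, 1514.27 and 1523.6 TPM with HFPO-TA, against 1791.33, 1424.08 and 1534.72 TPM with DMSO. The ratio of this row to the IGF2 row was 2.91, 2.92 and 3.14 with HFPO-TA, against 2.92, 2.89 and 2.88 with DMSO. INS, the insulin gene, was listed at 0 in all 6 libraries. Summed, IGF2 and INS-IGF2 averaged 2170 ± 258.8 TPM with HFPO-TA and 2129 ± 249.4 TPM with DMSO (SD, n = 3 each). That sum, chosen after the values were seen, had a log2 fold change of 0.03 (limma adjusted p = 0.95). How the counting divided reads among these rows was not tested. Whether counting used strand is not given in the sources used here, and IGF2-AS, which overlaps IGF2 on the other strand, ran from 6.64 to 9.03 TPM.

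H19 is a noncoding RNA that shares an imprinting control region and enhancers with IGF2 and hosts miR-675. It lies at chr11:1995176-2001470 on the minus strand. H19 read 3.91, 1.63 and 2.91 TPM with HFPO-TA, against 3.18, 2.39 and 2.33 TPM with DMSO. The HFPO-TA libraries spread on either side of the DMSO libraries. H19 had a log2 fold change of 0.03 (SE 0.24, 95% interval -0.52 to 0.59, limma adjusted p = 0.976), the widest interval of the set. The IGF2 row exceeded H19 by 161 to 318 times with HFPO-TA and by 193 to 228 times with DMSO. The MIR675 row was listed at 0 in all 6 libraries, as were MIR483 within IGF2 and MIR770 within MEG3. The library kit is not given, so these zeros do not show whether the microRNAs were present. The products of MIR675 are shown with their seeds in capitals because H19 carries them.
hsa-miR-675-5p: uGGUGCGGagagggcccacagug
hsa-miR-675-3p: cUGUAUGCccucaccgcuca

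CDKN1C, a growth-restraining cell cycle inhibitor transcribed from the maternal copy in the neighbouring imprinted domain of 11p15, was abundant. It read 1296.28, 1241.94 and 1277.63 TPM with HFPO-TA, against 1337.28, 1102.75 and 1175.68 TPM with DMSO. KCNQ1OT1, the paternal noncoding RNA of that domain, stayed between 0.57 and 0.73 TPM. Of 19 listed genes at 11p15, 15 were tested and 0 were called. The smallest p was that of KCNQ1, a potassium channel gene, with a log2 fold change of -0.48 (SE 0.15, limma adjusted p = 0.245).

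DLK1 encodes a membrane protein of hepatoblasts and other progenitors that resembles Notch ligands. It lies at chr14:100725705-100738224 on the plus strand. DLK1 read 190.05, 225.8 and 252.47 TPM with HFPO-TA, against 166.41, 220.21 and 214.01 TPM with DMSO. The highest 2 libraries were HFPO-TA, but the groups overlapped, and replicate 1 was the lowest in each. The difference on the log2 scale was 0.15 (SE 0.14, 95% interval -0.16 to 0.47, limma adjusted p = 0.727). Of 21 listed DLK1 and Notch pathway genes, 19 were tested, 10 were above 0, 9 below, and 0 were called.

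MEG3, the maternal noncoding RNA beside DLK1 (chr14:100779410-100861031, plus strand), was close to 0. It read 0.1, 0.14 and 0.01 TPM with HFPO-TA, against 0.04 and 0.02 TPM in DMSO replicates 1 and 3, and was listed at 0 in DMSO replicate 2. These values lie far under the filter, and the groups overlapped. The other maternal noncoding RNAs of the locus were as low: MEG8 was listed at 0 in 5 of 6 libraries, and so was MEG9. RTL1, a paternal gene derived from a retrotransposon, ran from 0.12 to 0.33 TPM with HFPO-TA and from 0.12 to 0.19 TPM with DMSO. DIO3, which inactivates thyroid hormone at the far end of the locus, was expressed, at 9.75 to 14.79 TPM with HFPO-TA and 9.81 to 14.8 TPM with DMSO. DIO3OS, a noncoding gene beside DIO3 on the side of DLK1, was expressed too, at 7.68 to 10.29 TPM with HFPO-TA and 9.6 to 10.57 TPM with DMSO. It had the smallest p of the 4 genes tested at the locus and did not pass (log2 fold change -0.22, SE 0.13, limma adjusted p = 0.583). MEG3, RTL1, MEG8 and MEG9, which lie between DLK1 and DIO3OS, were under 1 TPM in both groups.

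PEG3, a paternal zinc finger gene at chr19:56810077-56840728 on the minus strand, was listed at 0 in all 6 libraries. Its neighbours ZIM2, MIMT1 and USP29 were also listed at 0 throughout. ZIM2 shares exons with PEG3, 12.9% of the exon bases of PEG3, and both rows were at 0. ZNF264, at the edge of the locus, was the 1 gene of 8 found there that passed the filter, at 4.12 to 6.03 TPM with HFPO-TA and 3.55 to 5.06 TPM with DMSO.

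**Figure D3:**
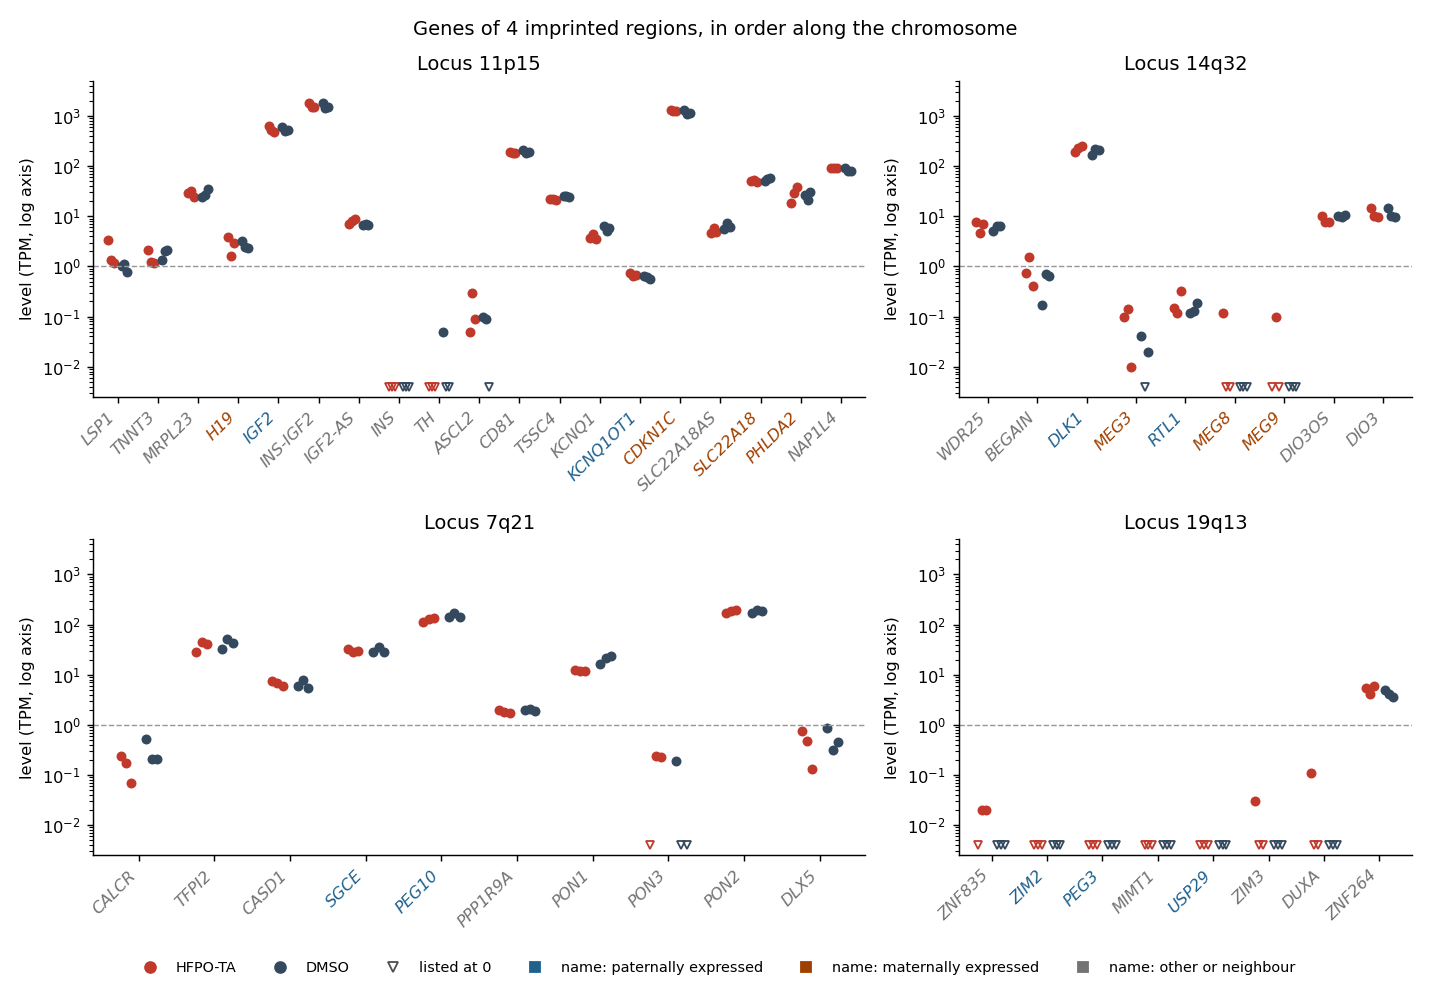
Level in TPM (log axis) of each gene listed at 4 imprinted regions, in chromosomal order, HFPO-TA in red to the left of DMSO in grey. Open triangles are values listed at 0, the dashed line marks 1 TPM, and names are coloured by the parental copy from which the gene is usually transcribed. IGF2, CDKN1C, DLK1 and PEG10 are high while MEG3, MEG8, MEG9 and PEG3 lie under 1 TPM in both groups.

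PEG10 encodes a capsid-like protein derived from a retrotransposon and is needed for placental growth. It was the member with the largest difference. It lies at chr7:94656325-94669695 on the plus strand. PEG10 read 111.89, 130.88 and 136.67 TPM with HFPO-TA, against 139.66, 167.77 and 142.72 TPM with DMSO. Each HFPO-TA library was below each DMSO library, as in 9.4% of all tested genes, while 8.55% had each HFPO-TA library above. Means were 126.5 ± 12.96 TPM with HFPO-TA and 150 ± 15.42 TPM with DMSO (SD, n = 3 each). The log2 fold change was -0.25 (SE 0.10, 95% interval -0.48 to -0.02, limma unadjusted p = 0.0395, adjusted p = 0.381), which did not pass.

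SGCE shares a promoter region with PEG10 and is also transcribed from the paternal copy. It read 32.07, 28.74 and 29.03 TPM with HFPO-TA, against 27.77, 35.85 and 27.79 TPM with DMSO, with groups that overlapped. The ratio of PEG10 to SGCE was 3.49, 4.55 and 4.71 with HFPO-TA, against 5.03, 4.68 and 5.14 with DMSO. A further 7q21 gene, PON1, a serum lipid-binding esterase made by the liver, read 12.37, 11.92 and 11.69 TPM with HFPO-TA, against 16.36, 21.94 and 23.37 TPM with DMSO. Its log2 fold change was -0.72 (SE 0.14, limma adjusted p = 0.0772), which did not pass. Of 17 listed Gag-derived genes, the family of PEG10, 10 were tested and 0 called.

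GPC3 is a cell-surface heparan sulfate proteoglycan that restrains fetal growth and is a marker of hepatoblasts and liver cancer. It lies on the X chromosome (chrX:133535745-133985895, minus strand) and is not imprinted. By row, it was the most abundant member, above 99.4% of genes that average at least 1 TPM. The IGF2 and INS-IGF2 rows summed averaged more, 2170 TPM with HFPO-TA and 2129 TPM with DMSO. GPC3 read 1543.3, 1745.98 and 1771.58 TPM with HFPO-TA, against 1596.25, 1760.22 and 1687.89 TPM with DMSO. The groups overlapped, with replicate 1 lowest in each. The log2 fold change was 0.00 (SE 0.07, 95% interval -0.15 to 0.16, limma adjusted p = 0.991), the narrowest interval of the set. Of 21 listed glypicans and partners, 20 were tested and 0 were called, with 6 above 0 and 14 below.

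IGF2BP1 and IGF2BP3 bind messages, IGF2 among them, and shield them from decay. IGF2BP1 (chr17:48997412-49055650, plus strand) read 23.04, 19.57 and 21.38 TPM with HFPO-TA, against 23.55, 21.59 and 20.84 TPM with DMSO. IGF2BP3 (chr7:23310209-23470467, minus strand) read 25.03, 22.8 and 21.54 TPM with HFPO-TA, against 23.66, 23.96 and 21.78 TPM with DMSO. Both genes had overlapping groups and stayed within a few TPM of each other in every library.

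The log2 fold change of IGF2BP1 was -0.04 (SE 0.10, 95% interval -0.27 to 0.18, limma adjusted p = 0.909). For IGF2BP3 it was 0.00 (SE 0.09, 95% interval -0.21 to 0.21, limma adjusted p = 0.995). IGF2BP3 overlaps MALSU1 on the other strand over 17.9% of its exon bases, and MALSU1 ran from 71.93 to 88 TPM with HFPO-TA and from 70.05 to 82.32 TPM with DMSO. The third paralog, IGF2BP2, which also stays active in adults, was higher than either, at 57.97 to 66.06 TPM with HFPO-TA and 54.97 to 62.27 TPM with DMSO. All 17 listed IGF2BP and m6A genes were tested and 0 were called.

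LIN28B (chr6:104936616-105083332, plus strand) read 9.18, 7.5 and 7.05 TPM with HFPO-TA, against 7.27, 7.41 and 7.08 TPM with DMSO. HFPO-TA replicate 1 was the highest library and HFPO-TA replicate 3 the lowest. The log2 fold change was 0.10 (SE 0.13, 95% interval -0.19 to 0.39, limma adjusted p = 0.814). Its paralog LIN28A, typical of pluripotent cells, read 6.48, 5.87 and 5.58 TPM with HFPO-TA, against 7.05, 7.26 and 7.33 TPM with DMSO. LIN28A had groups that did not overlap, yet its log2 fold change of -0.24 (SE 0.11, limma adjusted p = 0.457) did not pass. The ratio of LIN28B to LIN28A, chosen after the values were seen, was 1.42, 1.28 and 1.26 with HFPO-TA, against 1.03, 1.02 and 0.966 with DMSO. The ratio was not tested.

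Of 48 listed LIN28 and let-7 pathway genes, 42 were tested, 16 were above 0 and 25 below, and 1 was called. Of 24 listed oncofetal genes, 23 were tested, 9 were above 0 and 14 below, and the same gene was the 1 called. That gene was DUSP9, a phosphatase that acts on MAP kinases. DUSP9 read 222.43, 238.32 and 271.95 TPM with HFPO-TA, against 130.84, 130.36 and 143.22 TPM with DMSO. It rose, with a log2 fold change of 0.85 (SE 0.08, limma adjusted p = 0.0104). Both lists were written with earlier results of these data known, so DUSP9 is no independent evidence of their direction. The adjusted p of DUSP9 was 0.0553 without DMSO replicate 2, 0.0762 without DMSO replicate 3 and 0.0554 without HFPO-TA replicate 2.

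**Figure D4:**
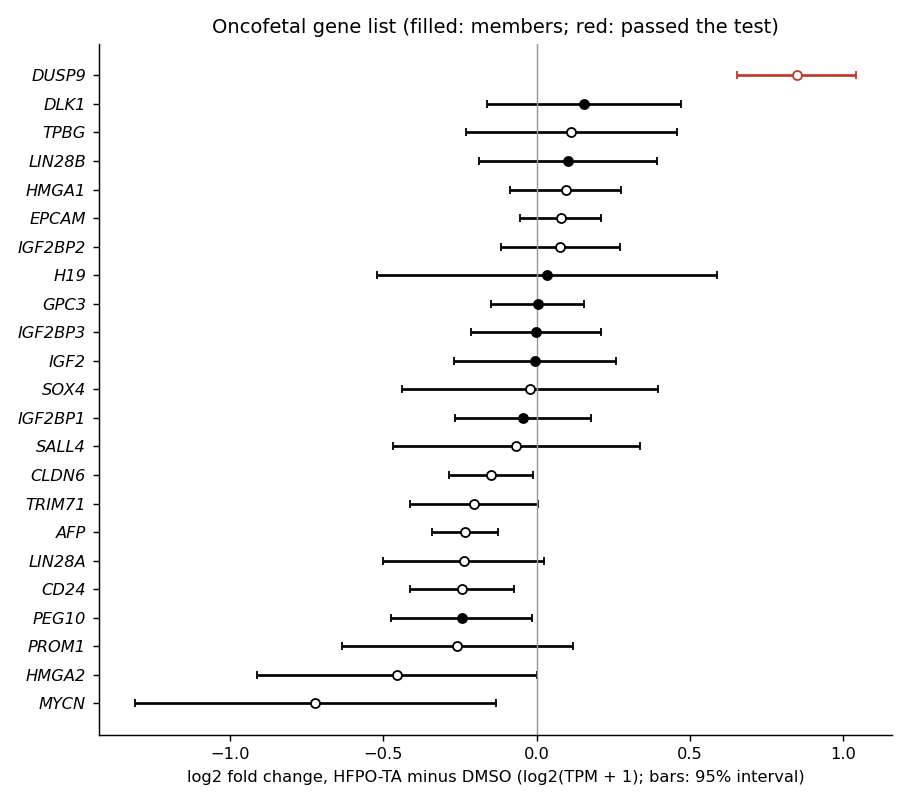
Log2 fold change (HFPO-TA minus DMSO, log2(TPM + 1)) of the 23 tested oncofetal genes with 95% intervals. Filled points are members of the set, open points are other genes, and red marks DUSP9, the 1 gene that passed the test, at 0.85.

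Genes around the set gave few calls, but only 0.492% of all tested genes were called. Lists this short would mostly hold no called gene at that share, so 0 calls in a list says little about its genes. The same holds for the locus and family lists above. Of 30 listed IGF axis genes, 24 were tested, 8 were above 0 and 16 below, and 0 were called. The receptors IGF1R and IGF2R, the second of which takes up and degrades IGF2, read 7.91 to 11.56 and 44.56 to 54.02 TPM with HFPO-TA, against 8.68 to 13.05 and 44.41 to 54.09 TPM with DMSO. Of 20 genes that keep or erase imprints, 17 were tested and 0 called. CTCF, which binds the control region between H19 and IGF2, read 14.74, 14.3 and 14.44 TPM with HFPO-TA, against 14.9, 14.21 and 13.64 TPM with DMSO. Of 45 other imprinted genes, 29 were tested and 0 called. Among these, MEST, a paternal gene of mesoderm, read 158.15, 151.53 and 171.48 TPM with HFPO-TA, against 174.11, 176.07 and 175.49 TPM with DMSO, and did not pass (log2 fold change -0.13, limma adjusted p = 0.468). Of 24 genes listed as paternally expressed 15 were tested, and of 10 listed as maternally expressed 6 were, with 0 called in either. At Xq26 around GPC3, 5 of 6 genes were tested and 0 called. In the fetal to adult liver list 9 genes were tested and 0 called. Among the 10 marker lists, FGB, a fibrinogen chain, was the 1 gene of 18 tested hepatoblast markers called, at 3896.38, 3371.56 and 3090.46 TPM with HFPO-TA, against 6104.58, 7091.31 and 7015.41 TPM with DMSO (log2 fold change -0.97, SE 0.09, limma adjusted p = 0.0104). No gene was called in the biliary, stromal, endothelial, pluripotency, gut endoderm, neural, yolk sac and trophoblast, muscle and blood marker lists.

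Replicate 1 lay above replicates 2 and 3 in both groups for H19, IGF2 and IGF2BP1, and below them in both groups for DLK1, PEG10 and GPC3, which makes 37.5% of the 8 members in each direction. Among all tested genes, 29.7% lay above in both groups and 9.1% below. A letter in the deposited file names also parts replicate 1 from replicates 2 and 3 in both groups, and the labels do not explain it. For IGF2, replicate 1 differed from the mean of the other 2 by 0.33 with HFPO-TA and 0.26 with DMSO on the log2(TPM + 1) scale. For DLK1 the same differences were -0.33 and -0.38.

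Stromal markers moved with the replicate number too. Of 16 tested stromal and stellate markers, 12 were higher in replicate 1 in both groups and 0 were lower in both. COL1A1, a fibrillar collagen, differed by 0.97 with HFPO-TA and 0.66 with DMSO. All 16 also had a log2 fold change below 0 between treatments, with a median of -0.22, and 0 of them were called. Medians of other marker lists also lay below the -0.008 of all tested genes, so this was not a feature of stromal markers alone. The median was -0.20 for hepatoblast markers, with 13 of 18 below 0, and -0.20 for biliary markers, with 6 of 9 below. It was -0.18 for endothelial, -0.17 for gut endoderm, -0.27 for muscle and -0.15 for neural markers. The part of stromal cells in the members' values was not tested. Within replicates 2 and 3 alone, 265 of 14922 genes and 0 of the 8 members were called. With so small a share called, 0 of 8 does not show whether the members' result depends on replicate 1.

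**Figure D5:**
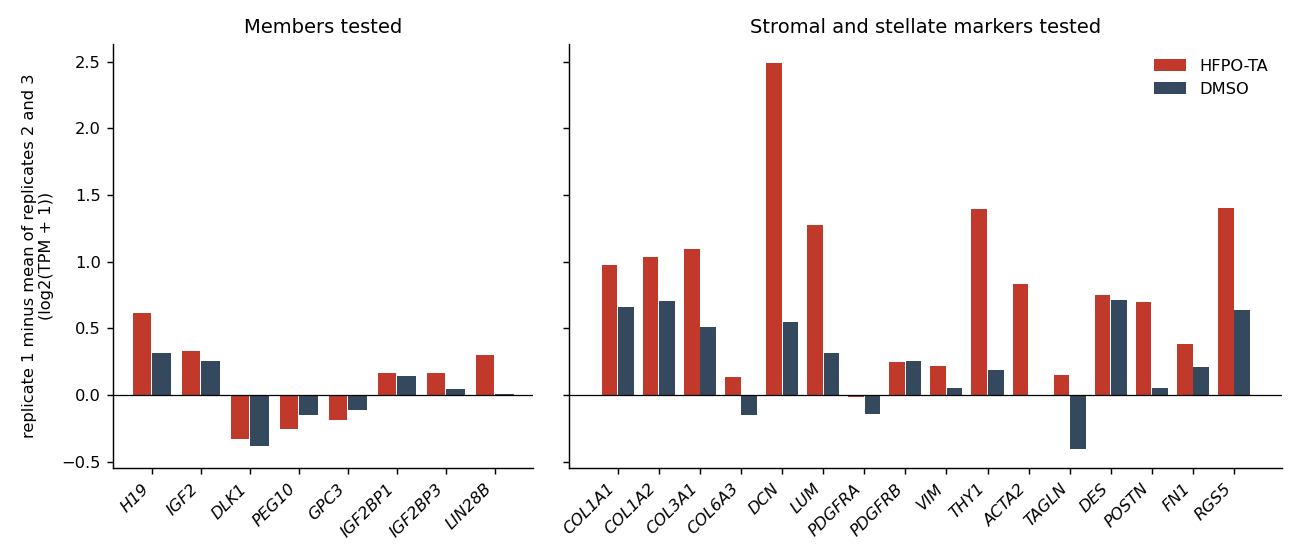
Difference of replicate 1 from the mean of replicates 2 and 3 in log2(TPM + 1), HFPO-TA in red to the left of DMSO in grey, for the 8 tested members and 16 stromal and stellate markers. H19, IGF2 and IGF2BP1 are above 0 in both groups and DLK1, PEG10 and GPC3 below, and most stromal markers are above 0.

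Across the 6 libraries IGF2 and GPC3 ran opposite to each other (Pearson r -0.99 over 6 libraries, a description of libraries that share the replicate 1 difference). DLK1 and GPC3 ran together (r 0.85), and H19 and IGF2BP1 likewise (r 0.91). Among genes with a mean of at least 10 TPM, the pattern most like that of GPC3 was APOC3 (r 0.996), that of IGF2 was BCKDHA (r 0.993), and that of PEG10 was FOXA3 (r 0.994). The next matches were nearly as close, BRK1 for GPC3 (r 0.994) and SRP9P1 for PEG10 (r 0.992). For the other tested members the best match ran from r 0.982 (DLK1 with ATP5PO) to 0.999 (IGF2BP1 with SNRNP70). Each is the highest of 8086 or 8087 genes searched over 6 libraries that share the replicate 1 difference. A high r therefore describes these libraries only.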

How the data were processed

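RNA sequencing was measured in 3 HFPO-TA and 3 DMSO libraries. The deposited columns are headed FPKM but sum to nearly the same total in each library (995690 to 996186), so the values deposited by the authors were treated as TPM. Per the submitters' processing notes, the build was GRCh38.p13 and the tools were RSEM, Bowtie2 and HISAT, without versions or roles. Kit, strand setting and annotation: not given in the sources used here. Depth is unknown, so no counting interval is given.

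Groups and replicate numbers came from sample titles. Values were transformed to log2(TPM + 1), a pseudocount of 1 that understates changes of low genes. Genes reaching 1 TPM in 3 libraries were fitted with limma 3.58.1 in R 4.3.3, with treatment as the only term and a trended, robust variance. Tests were 2-sided, with Benjamini-Hochberg adjustment over all tested genes and a threshold of 0.05. The fit was tested on simulated data with independent noise, no replicate 1 difference and changes larger than that of any member. That test does not show how well the fit finds small changes. No set test was run.

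The members and the 27 gene lists were chosen with earlier results of these data known. The text names all members, called list genes, the list gene with the smallest p, genes of the imprinted loci and the genes most alike in pattern; other genes are named as background and were chosen after their values were seen. A value of 0 is written as listed at 0. None of 73 ribosomal protein genes was listed at 0. That check first took in paralogs with a name ending in L, and 2 of these, RPL3L and RPL10L, which are restricted to other tissues, were listed at 0 in some libraries; they were then left out. Positions, overlaps and UTRs came from GENCODE 29, in which 58516 of 60623 identifiers were found, and microRNA sequences from RefSeq GRCh38.p14. Alternatives covered pseudocount, filter, scaling, variance, replicate number and each library left out. Plots used matplotlib 3.10.9 (Python 3.11.15).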

Additional observations from a re-analysis of the deposited data

How the results depend on the processing

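No member was called under any of the 19 alternatives. DLK1, PEG10 and LIN28B kept their direction in all of them, but many of these could not change it. The filter, variance, replicate block, file-name letter and IGF2 sum settings left their estimates at 0.155, -0.245 and 0.103. Only the pseudocount, scaling and left-out libraries could turn the sign of these 3 genes. The adjusted p of PEG10 ran from 0.164 to 0.696. Signs near 0 turned. H19 was -0.067 in replicates 2 and 3 alone. IGF2 was 0.002 with median-of-ratios scaling, 0.027 summed with INS-IGF2 and 0.028 summed with 3 overlapping rows, both sums chosen after seeing the data. GPC3 was -0.009 with upper-quartile scaling, and IGF2BP3 was 0.005 with median-of-ratios scaling. With each library left out in turn, H19 ran from -0.17 to 0.28, IGF2 from -0.12 to 0.08, GPC3 from -0.034 to 0.066, IGF2BP1 from -0.098 to 0.014 and IGF2BP3 from -0.058 to 0.046. DLK1, 0.155 with all libraries, ran from 0.027 without DMSO replicate 1 to 0.264 without HFPO-TA replicate 1, and was 0.060 without HFPO-TA replicate 3. LIN28B, 0.103 with all libraries, was lowest without HFPO-TA replicate 1 (0.003) and highest without HFPO-TA replicate 3 (0.173). PEG10, -0.245 with all libraries, was -0.303 without HFPO-TA replicate 3, -0.160 without HFPO-TA replicate 1 and -0.163 without DMSO replicate 2. H19 has no value under the stricter filter.

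The count of genes called, 77, moved more. It was 10 with no filter (6 higher, 4 lower), 29 at a minimum of 0.1 TPM, 130 at 5 TPM, 32 and 42 under the median-of-ratios and upper-quartile scalings, and 11 with neither variance trend nor robust estimate (8 higher, 3 lower). A term for the file-name letter gave 207; it was 265 in replicates 2 and 3 alone, and from 5 to 296 with 1 library left out, the lowest without HFPO-TA replicate 2 and the highest without HFPO-TA replicate 1. With a replicate block it was 30 genes and 0 members. Libraries of the same number correlated at 0.184, 0.123 and 0.028 in their deviations, and libraries of different numbers at -0.158 to 0.068. Deviations from a group mean cancel out within the group, so these values are not independent. The block lowered the SE of IGF2 from 0.114 to 0.055 and that of DLK1 from 0.136 to 0.059. With the letter term these were 0.049 and 0.056. The labels state no pairing, so the main fit has none, and its SEs and intervals carry this shared difference. The causes of the shifts in count were not tested. DUSP9 passed in 14 of the 19 and kept its direction in all, though many of these settings could not change that direction. Its limma adjusted p was 0.0583 with no filter and 0.0775 with neither variance trend nor robust estimate. Unknown depth limits what can be said of MEG3 and PEG3.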
